A study of Rattus norvegicus with 11 samples.

Results

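The circadian clock genes described here are Arntl, Clock, Npas2, Per1, Per2, Per3, Cry1, Cry2, Dbp and Tef. These 10 genes, of 25275 gene rows in the deposited table, were chosen by name, with earlier results of these data known. All 10 were found by symbol, and all 10 passed the filter on low counts, among 12846 genes tested. RNA was sequenced from retroperitoneal white fat, the depot behind the abdominal cavity near the kidneys, of 11 ovariectomized female Wistar rats, 1 library per rat. In both groups the rats were wild type, began at 10 weeks of age, ate a western diet for 6 weeks before their ovaries were removed, and received degarelix, a blocker of the receptor for gonadotropin-releasing hormone. Osmotic pumps then held vehicle in 6 rats (degarelix only) or delivered follicle-stimulating hormone (FSH) at 6 µg per kg per day in 5 rats (degarelix + FSH). Food was restricted for 12 days and free for 7 days, and the rats were 19 weeks old when tissue was collected, with food withheld for the last 4 h. The hour of the day of collection and the light schedule were not given in the sources used here. Both groups lack ovaries and carry the receptor block, so the comparison is of added FSH on that background.

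The clock of mammalian cells is a feedback loop of transcription that takes about a day. ARNTL (also called BMAL1) pairs with CLOCK or its relative NPAS2, binds E-box sequences and switches on the Per and Cry genes, whose proteins return to the nucleus and hold the pair back. Dbp and Tef, which encode related PAR leucine zipper activators, are outputs of the loop and act on D-box sequences. The repressors NR1D1 and NR1D2 and the activating ROR receptors compete on RORE sequences and set the rhythm of Arntl. White fat has its own clock, in which Arntl and Npas2 peak at about the opposite time of day from Dbp, Tef and the Per genes, so that the levels of these genes in a single tissue sample carry information on the hour of collection.

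The control sequences named above are shown in 4 promoters chosen because they hold such letters, as the 250 bases before the start site in RefSeq's rat assembly GRCr8. RefSeq's table held 9 of the 10 genes (Arntl as Bmal1), and Cry1 was not in it. Capitals mark letters that match an E-box (CACGTG), an E'-box (CACGTT), a D-box (TTATGTAA or TTACGTAA) or a RORE (AAGTAGGTCA, or the same with another base in the third place), each searched on both strands and over a window that also held the 50 bases after the start. The first 3 sequences are those of Arntl (chr1:176766078-176766327, plus strand), Per2 (chr9:99496994-99497243, minus strand) and Tef (chr7:115206577-115206826, plus strand), and the last is that of Ciart (chr2:186112247-186112496, minus strand), a repressor of the loop whose level ran opposite to that of Clock.
Arntl: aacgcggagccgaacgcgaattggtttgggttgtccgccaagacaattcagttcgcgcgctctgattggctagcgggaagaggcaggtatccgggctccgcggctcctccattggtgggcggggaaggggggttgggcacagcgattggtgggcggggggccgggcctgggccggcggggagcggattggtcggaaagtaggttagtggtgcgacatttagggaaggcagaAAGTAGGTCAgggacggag
Per2: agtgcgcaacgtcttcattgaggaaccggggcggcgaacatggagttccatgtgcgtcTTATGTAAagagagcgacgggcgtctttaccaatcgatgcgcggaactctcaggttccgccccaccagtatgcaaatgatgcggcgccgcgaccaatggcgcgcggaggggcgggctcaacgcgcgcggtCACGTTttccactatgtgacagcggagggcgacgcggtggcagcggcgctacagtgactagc
Tef: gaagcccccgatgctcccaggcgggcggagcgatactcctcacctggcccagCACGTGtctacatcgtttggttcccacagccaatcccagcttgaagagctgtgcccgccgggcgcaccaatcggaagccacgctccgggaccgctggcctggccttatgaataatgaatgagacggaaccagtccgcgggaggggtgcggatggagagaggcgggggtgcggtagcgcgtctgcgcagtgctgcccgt
Ciart: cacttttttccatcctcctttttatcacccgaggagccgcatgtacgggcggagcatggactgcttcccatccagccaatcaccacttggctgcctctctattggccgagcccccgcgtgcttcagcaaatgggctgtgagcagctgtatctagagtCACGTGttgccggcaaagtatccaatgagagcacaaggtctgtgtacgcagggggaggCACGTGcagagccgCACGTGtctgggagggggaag

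The Arntl window held 1 match to the RORE letters, as AAGTAGGTCA with its first base at -19 from the start. Such a match was held by 0.245% of 33469 rat promoter windows of the same length. Other spellings of these sequences were not counted. The Per2 window held a D-box at -192 (1.01% of all windows) and an E'-box at -62 (4.83%). The Tef window held an E-box at -198 (6.42%), and that of Ciart held 3, at -93, -35 and -21. The Cry2 window held an E'-box at -212, on the minus strand. Of the 9 windows, 1 held an E-box, 2 an E'-box, 1 a D-box and 1 a RORE, and the windows of Clock, Npas2, Per1, Per3 and Dbp held none of these letters. A match is a description of the letters and not a measured binding site. Sequence outside the windows was not searched, so a window without a match does not mean a gene without such a sequence.

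The libraries held between 13163021 and 23694602 counts. Levels are given as CPM, counts scaled to a common library size with edgeR's TMM factors, and a count of 0 allows up to 0.223 CPM in the smallest library (3 counts, counting error only). CPM is not corrected for gene length, so levels are compared between rats and not between genes. The tissue label was checked with marker genes. All 6 adipocyte markers were present, with summed levels of 35766 to 44807 CPM in degarelix only and 37320.5 to 47469.9 CPM in degarelix + FSH. Of 6 kidney markers, 4 were at 0 in every library, among them Umod, and their sum reached at most 2.39 CPM. Of 4 adrenal cortex markers found, Cyp11b2 was at 0 throughout, but Cyp11a1 (33.7 to 43.7 CPM), Star (10.3 to 31.4 CPM) and Mc2r (21.3 to 58.6 CPM) were present in every library. The sum of these 4 markers was 80.3 to 112 CPM in degarelix only and 80.6 to 113 CPM in degarelix + FSH. Neither the cells that it came from nor its part in the clock gene values was tested. In bulk tissue, fewer cells of a type and less RNA per cell cannot be told apart.

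With FSH, none of the 10 clock genes passed the test for a change. In edgeR's quasi-likelihood test with Benjamini-Hochberg adjustment over all genes, 0 of 10 passed an adjusted p of 0.05, where 2.27% of all genes tested passed, and 0 of 10 had an unadjusted p under 0.05, where 22.6% of all genes did. DESeq2 and limma-voom also called 0 of 10. Differences are given as degarelix + FSH minus degarelix only on the log2 scale. Their median was 0.07 over the 10 genes and 0.01 over all genes tested, with 6 above 0 and 4 below. The groups overlapped at all 10, where they did not overlap at 4.34% of all genes. The p-values measure the spread between separate animals. All 10 genes had the larger spread among the degarelix only rats, where 49.9% of all genes did, which was not tested. For Cry1 and Per3 the SDs were close (ratios 1.05 and 1.12). Over the 11 rats Arntl ran opposite to Per1, Dbp and Per3 by Pearson's r, but 0 pairs of clock genes passed by Spearman's rho.

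**Figure D1:**
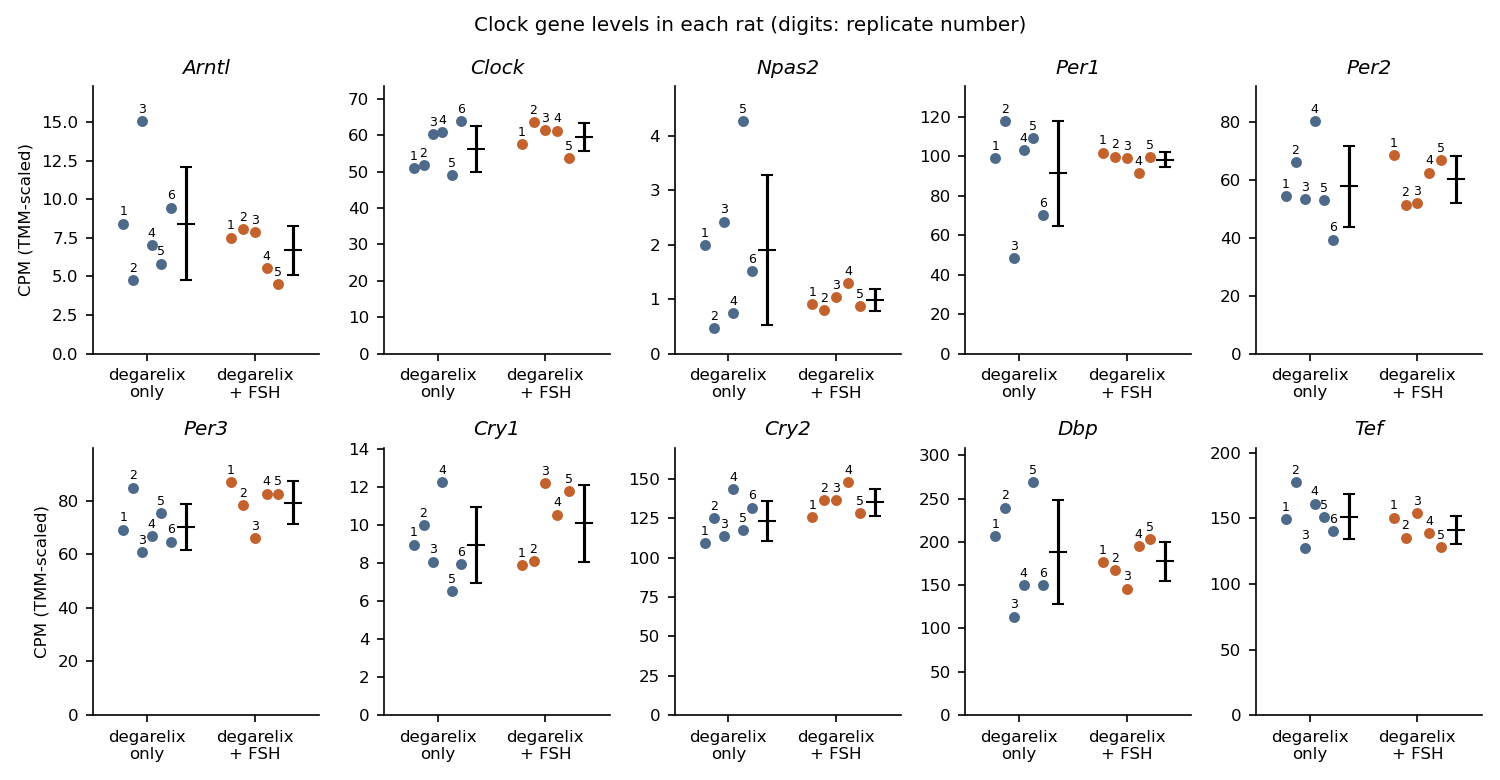
Level of each of the 10 clock genes in each rat, in TMM-scaled CPM on axes that start at 0. Points are rats with their replicate number, and black marks give mean ± SD (n = 6 and n = 5). The groups overlap in every panel, and Per1 lies between 91.5 and 102 CPM in the FSH rats but between 48.3 and 118 CPM in the degarelix only rats.

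In the activating arm, Arntl (ENSRNOG00000014448), the obligate partner in the activating pair, stood in degarelix only replicates 1 to 6 at 8.41, 4.78, 15.1, 7.04, 5.82 and 9.45 CPM. In FSH replicates 1 to 5 it stood at 7.51, 8.08, 7.87, 5.53 and 4.51 CPM. Degarelix only replicate 3 was the highest of all rats and FSH replicate 5 the lowest, and the groups overlapped. The means were 8.43 ± 3.67 and 6.70 ± 1.59 CPM (SD, n = 6 and n = 5), and the log2 difference was -0.33 ± 0.28 (SE, 95% interval -0.93 to 0.27, edgeR adjusted p = 0.499). The difference was -0.09 without degarelix only replicate 3 and -0.22 without FSH replicate 5.

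Npas2 (ENSRNOG00000013408), which can stand in for CLOCK, was measured from few reads, with 11 to 69 counts per library. Its degarelix only values were 1.996, 0.465, 2.42, 0.736, 4.27 and 1.51 CPM, a range that holds both the lowest and the highest of all 11 rats. Its FSH values were 0.901, 0.802, 1.04, 1.30 and 0.872 CPM. The log2 difference was the largest of the 10 genes and the least precise, at -0.92 ± 0.48 (95% interval -1.97 to 0.13, edgeR adjusted p = 0.278). It was -0.51 with limma-voom and -0.51 without degarelix only replicate 5, the rat with the most Npas2. Clock (ENSRNOG00000002175), the other partner, was steady. It had 49.0 to 64.0 CPM without FSH (median 56.0) and 57.6, 63.7, 61.4, 61.3 and 53.7 CPM with FSH, and its log2 difference was 0.08 ± 0.08 (95% interval -0.09 to 0.26).

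Of the repressing arm, Per1 (ENSRNOG00000007387), which also answers quickly to glucocorticoids and cAMP, had degarelix only values of 99.0, 118, 48.3, 103, 109 and 70.3 CPM. In the FSH rats it had 102, 99.7, 98.8, 91.5 and 99.4 CPM. Degarelix only replicates 3 and 6 lay below all FSH rats, replicates 2, 4 and 5 lay above them, and the group means were close, at 91.3 ± 26.5 and 98.2 ± 3.92 CPM (log2 difference 0.11 ± 0.19, 95% interval -0.30 to 0.52). Per2 (ENSRNOG00000020254), whose protein joins the same repressor complex, had 54.6, 66.3, 53.5, 80.5, 53.0 and 39.5 CPM without FSH. With FSH it had 68.6, 51.5, 52.0, 62.6 and 66.9 CPM. The extremes were degarelix only replicates 4 and 6, and the log2 difference was 0.06 ± 0.16 (95% interval -0.28 to 0.40). Per3 (ENSRNOG00000018413), an output-like relative, had 69.3, 84.9, 60.9, 66.9, 75.3 and 64.8 CPM without FSH and 86.9, 78.4, 66.2, 82.7 and 82.7 CPM with FSH. Its means were 70.3 ± 8.62 and 79.4 ± 7.97 CPM, and its log2 difference of 0.17 ± 0.09 had an unadjusted p of 0.0845 in edgeR's test (adjusted p = 0.286).

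The cryptochromes, which carry most of the repression, showed small differences. Cry1 (ENSRNOG00000006622) had 6.50 to 12.2 CPM without FSH (median 8.51) and 7.87, 8.08, 12.2, 10.5 and 11.8 CPM with FSH. Both groups spanned about the same range, and the log2 difference was 0.17 ± 0.17 (95% interval -0.20 to 0.54). Cry2 (ENSRNOG00000007478) had 109, 125, 114, 144, 117 and 132 CPM without FSH and 126, 137, 137, 148 and 128 CPM with FSH. Its lowest FSH value lay above 4 of the 6 degarelix only rats, and the log2 difference was 0.13 ± 0.08 (95% interval -0.04 to 0.29, edgeR adjusted p = 0.337).

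Among the outputs, Dbp (ENSRNOG00000021027), a direct target of the activating pair with one of the largest daily swings in fat, had 207, 239.7, 114, 149.8, 269 and 150.1 CPM without FSH. With FSH it had 176, 167, 146, 195 and 203 CPM. All FSH rats lay inside the range of the degarelix only rats, of which replicate 3 was lowest and replicate 5 highest. The means were 188 ± 59.9 and 178 ± 22.8 CPM (log2 difference -0.08 ± 0.20, 95% interval -0.52 to 0.35). Tef (ENSRNOG00000019383) had 128 to 178 CPM without FSH (median 150.1) and 151, 135, 154, 139 and 128 CPM with FSH, with a log2 difference of -0.10 ± 0.08 (95% interval -0.28 to 0.09). Of the 4 most precise genes, Clock, Per3, Cry2 and Tef, the 95% intervals reached at most 0.38 from 0 (Per3), while those of Arntl and Npas2 reached -0.93 and -1.97.

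**Figure D2:**
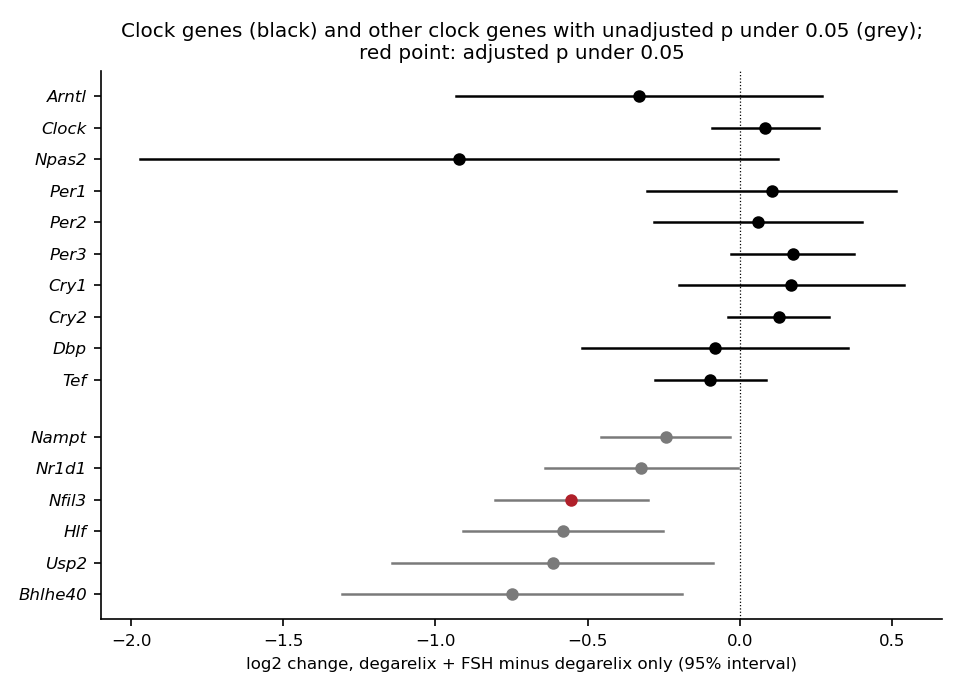
Log2 difference, degarelix + FSH minus degarelix only, with 95% intervals from edgeR's test, for the 10 clock genes (black) and the 6 of 21 other clock genes with an unadjusted p under 0.05 (grey). All 10 intervals of the upper group cross 0, and only Nfil3, at -0.55, has an adjusted p under 0.05 (red).

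The rest of the clock was read from a list of 23 other genes. All 23 were matched and 21 were tested, with Rorb and Arntl2 under the filter. With FSH, 1 of the 21 fell past the threshold and none rose, where 2.27% of all genes were called and 1.07% were called lower. The gene was Nfil3 (ENSRNOG00000011668), a repressor that binds the D-box sequences on which DBP, TEF and HLF act. It had 9.22, 10.5, 10.5, 11.7, 11.5 and 8.58 CPM without FSH and 6.85, 7.22, 8.02, 7.54 and 5.62 CPM with FSH, so that every FSH rat lay below every degarelix only rat. Nfil3 fell by a log2 difference of -0.55 ± 0.12 (95% interval -0.80 to -0.30, edgeR adjusted p = 0.0367). Its call ended in 9 of the 11 fits that left out 1 library, with adjusted p up to 0.0875 in edgeR's test. It stood without degarelix only replicate 4 (edgeR adjusted p = 0.0380) and without FSH replicate 4 (0.0344), and its log2 difference stayed between -0.60 and -0.48.

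Of the 21 genes, 6 had an unadjusted p under 0.05 in edgeR's test, where 22.6% of all genes did. All 6 lay lower with FSH, where 10.8% of all genes had such a p and lay lower. Besides Nfil3 these were Hlf, the third PAR leucine zipper activator, the E-box repressor Bhlhe40, the deubiquitinase gene Usp2, Nampt and Nr1d1, the last 2 named after their values were seen. Hlf stood at 3.10 ± 0.473 and 2.08 ± 0.275 CPM (log2 difference -0.58 ± 0.15, edgeR adjusted p = 0.0632), and it passed with DESeq2 (adjusted p = 0.0190) and with limma-voom with sample quality weights (adjusted p = 0.0409). Bhlhe40 stood at 37.3 ± 15.2 and 22.1 ± 3.73 CPM (log2 difference -0.75 ± 0.26, edgeR adjusted p = 0.122). It passed with DESeq2 (adjusted p = 0.0368) and, in edgeR's test, without degarelix only replicate 4 (adjusted p = 0.0446). Usp2 had a log2 difference of -0.61 ± 0.24, Nampt, a rate-limiting enzyme of NAD synthesis, of -0.24 ± 0.10, and Nr1d1, the heme-binding repressor of Arntl, of -0.32 ± 0.15 (edgeR adjusted p = 0.166, 0.172 and 0.214). Nr1d1 had 283, 197, 185, 183, 232 and 142 CPM without FSH and 162, 159, 179.7, 172 and 142 CPM with FSH, and the groups overlapped. The median log2 difference of the 21 genes was -0.04, with 9 above 0 and 12 below.

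The 10 genes ranged from steady to among the most variable of all genes. In edgeR's fit, the biological coefficient of variation (the spread beyond counting noise) was 0.504 for Npas2, above that of 97.5% of genes tested. It was 0.316 for Arntl (above 90.3%), 0.236 for Dbp (80.4%) and 0.221 for Per1 (77.7%). Clock and Cry2 were among the steadier genes, at 0.107 and 0.106 (above 26.6% and 25.9% of genes), and Tef and Per3 lay at 0.114 and 0.120. The median was 0.194 for the 10 genes and 0.139 for all genes.

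The SD of log2 CPM was larger in the degarelix only rats for 10 of 10 clock genes, where it was larger for 49.9% of all genes tested. The median ratio of the SDs, degarelix only over FSH, was 1.64 for the 10 genes and 0.999 for all genes. The ratio was highest for Per1, at 8.35 (SD 0.491 against 0.0588), above that of 99.9% of all genes. It was 4.37 for Npas2 (above 99.3%), 2.49 for Dbp (above 94.9%) and 1.58 for Arntl (above 80.6%). The smallest ratios were 1.05 for Cry1 and 1.12 for Per3.

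With 1 library left out in turn, chosen after seeing the data, 9 or 10 of the 10 genes had the larger spread in the degarelix only rats. Without degarelix only replicate 3, the rat with the lowest Per1, the Per1 ratio was 4.89, and without FSH replicate 4, the lowest FSH rat, it was 27.0. Of the 21 other clock genes, 14 had the larger spread in the degarelix only rats (median ratio 1.25), among them Ciart (2.60), Nr1d1 (2.59) and Bhlhe40 (2.48). The same held for 6 of 7 immediate early genes, 4 of 4 heat shock genes and 5 of 8 glucocorticoid-induced genes. These counts are descriptions of 6 and 5 rats and were not tested.

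**Figure D3:**
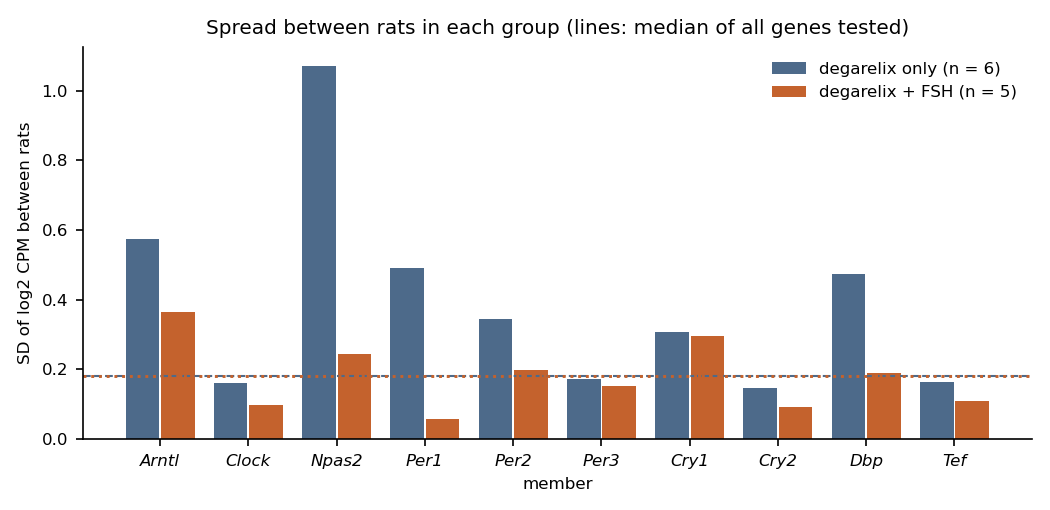
SD of log2 CPM between rats for each clock gene in degarelix only (n = 6) and degarelix + FSH (n = 5). Lines give the median SD over all genes tested, 0.180 and 0.181. The bar for degarelix only is the taller in all 10 pairs, by 8.35 times for Per1.

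Whether the clock genes moved together from rat to rat was read from Pearson's r and Spearman's rho of log2 CPM over the 11 rats, for all 45 pairs of the 10 genes. Of 15 pairs of an activator (Arntl, Clock or Npas2) with Per1, Per2, Per3, Dbp or Tef, 14 had a negative r (median -0.43). All 10 pairs among Per1, Per2, Per3, Dbp and Tef had a positive r (median 0.46). These sets leave out Cry1 and Cry2, with which Clock had a positive r (0.21 and 0.65). Arntl (-0.35 and -0.33) and Npas2 (-0.62 and -0.55) had a negative r with them. Clock and Npas2, both activators, had r = -0.29. The pairs share genes and rats, so the counts of signs carry no test. In permutation tests with 100000 resamples adjusted over the 45 pairs, 5 pairs passed by Pearson's r and 0 by Spearman's rho. Unadjusted, 10 pairs had a p under 0.05 by r and 5 by rho.

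Arntl and Per1 had r = -0.81 (p = 0.00238, adjusted p = 0.0394, permutation test) and rho = -0.60 (p = 0.0559, adjusted p = 0.305). Without the 2 rats farthest from the median of Arntl, degarelix only replicate 3 and FSH replicate 5, r was -0.65. Arntl and Dbp had r = -0.80 (permutation p = 0.00401, adjusted p = 0.0394) and rho = -0.60 (p = 0.0565, adjusted p = 0.305), and r was -0.69 without those 2 rats. Arntl and Per3 had r = -0.76 (permutation p = 0.00438, adjusted p = 0.0394) and rho = -0.73 (p = 0.0143, adjusted p = 0.264), and r was -0.63 without them. In all 3 pairs the rat with the most Arntl, degarelix only replicate 3, had the least of the partner.

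Clock and Dbp had r = -0.79 (permutation p = 0.00322, adjusted p = 0.0394) and rho = -0.73 (p = 0.0143, adjusted p = 0.264), and r was -0.67 without degarelix only replicates 1 and 5. Per1 and Dbp had r = 0.74 (permutation p = 0.00421, adjusted p = 0.0394) and rho = 0.59 (p = 0.0610, adjusted p = 0.305), and r was 0.51 without degarelix only replicates 3 and 6. The adjusted p of each of the 5 pairs was above 0.05 in at least 9 of the 11 fits that left out 1 rat, while r kept its sign. The number of pairs that passed was then 0 to 2. The weakest values were -0.55 for Arntl and Per1 and 0.55 for Per1 and Dbp, both without degarelix only replicate 3, so the size of these relations rests in part on that rat.

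Within the 6 degarelix only rats alone, Arntl had r = -0.95 with Per1 (exact permutation p = 0.00139, adjusted p = 0.0625), -0.85 with Dbp (exact permutation p = 0.0333, adjusted p = 0.167), -0.92 with Per3 (exact permutation p = 0.0125, adjusted p = 0.156) and -0.92 with Tef (exact permutation p = 0.0139, adjusted p = 0.156). The 5 FSH rats are too few to give a correlation. By sign alone, the 15 pairs of an activator with Per1, Per2, Per3, Dbp or Tef were negative in 14 cases within degarelix only and in 9 within FSH. The 10 pairs among Per1, Per2, Per3, Dbp and Tef were negative in 0 and 6 cases. Arntl with Dbp, Arntl with Per3 and Clock with Dbp were negative in both groups. Arntl with Per1, Arntl with Tef and Per1 with Dbp each changed sign between the groups, and Per1 lay between 91.5 and 102 CPM in the FSH rats. Over the rats of both groups, Arntl with Tef had r = -0.37 (permutation p = 0.266, adjusted p = 0.492). Whether the relations differ between the groups was not tested. With values centred on each group's mean, the 5 pairs that passed by Pearson's r over all rats had r = -0.80, -0.84, -0.75, -0.83 and 0.78, in the order in which they were first described. Npas2 and Dbp did not follow the pattern (r = 0.06, permutation p = 0.862), and the rat with the most Npas2, degarelix only replicate 5, also had the most Dbp.

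**Figure D4:**
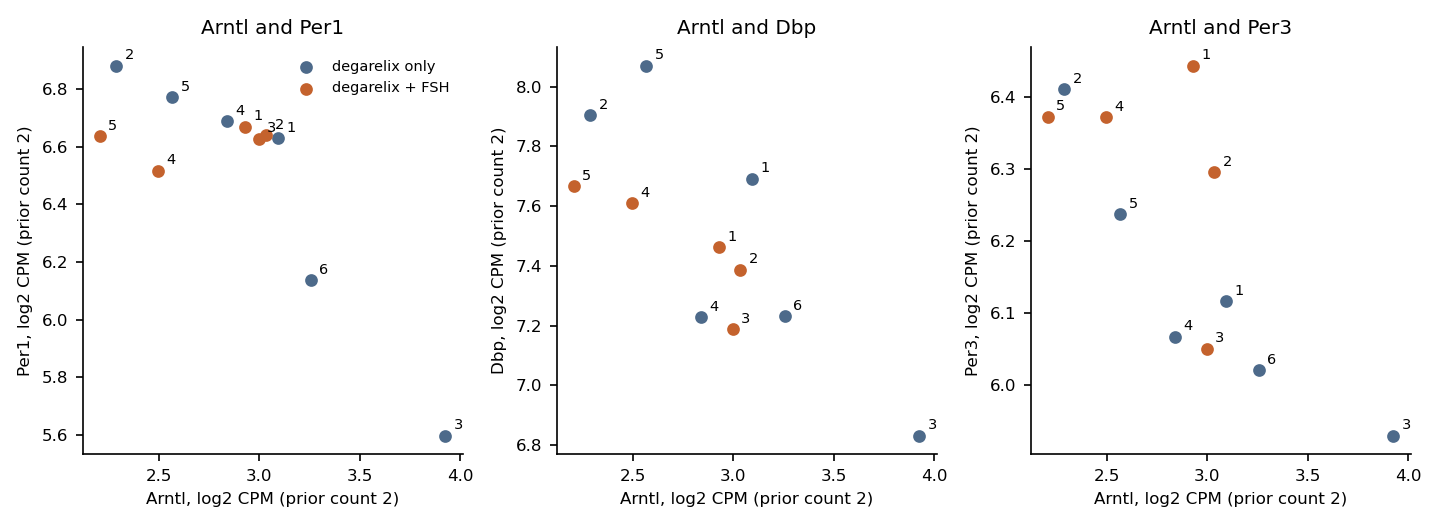
Arntl (horizontal, log2 CPM with a prior count of 2) against Per1, Dbp and Per3 (vertical, same scale) in each rat, with replicate numbers. Degarelix only replicate 3 sits at the lower right of each panel, and r over the 11 rats is -0.81, -0.80 and -0.76.

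**Figure D5:**
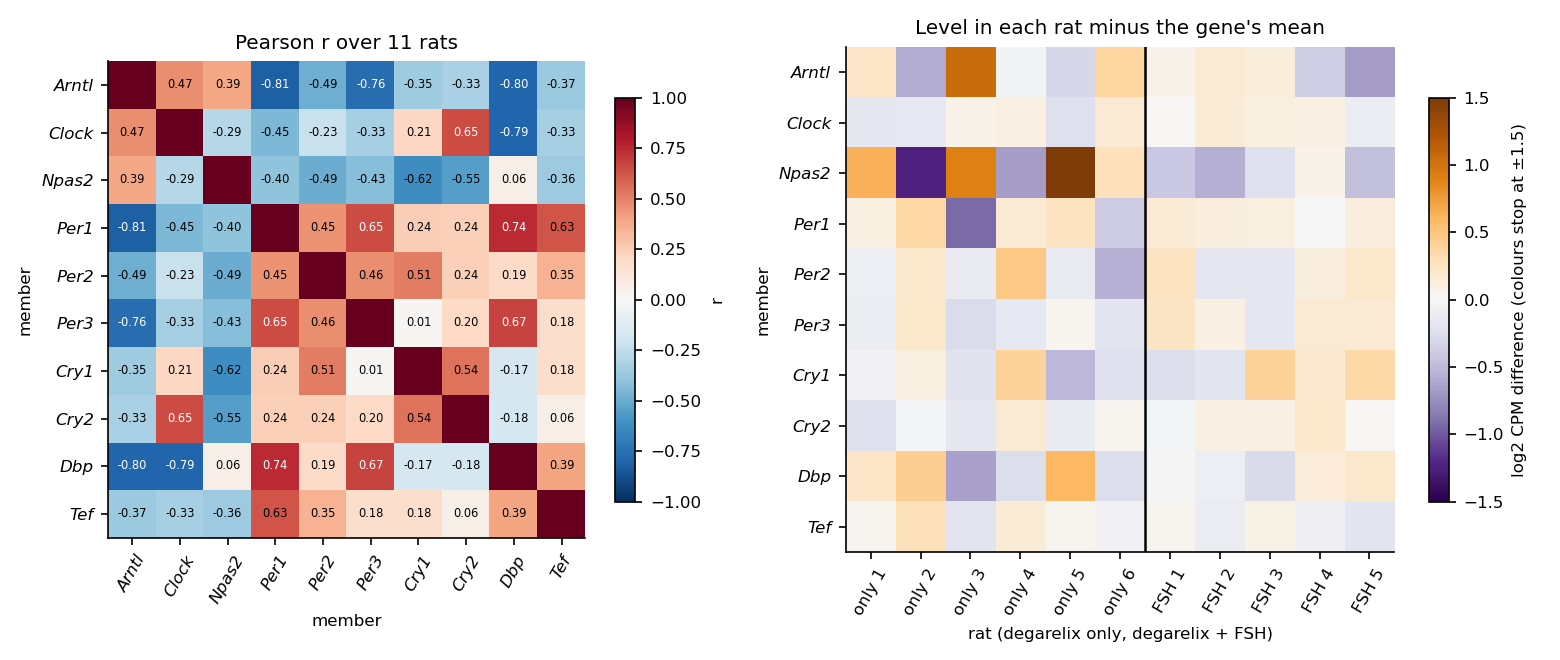
Left, Pearson r over 11 rats for all pairs of clock genes. Right, log2 CPM of each gene in each rat minus the gene's mean, with colours that stop at ±1.5. The row of Arntl is negative against all Per genes, Dbp and Tef, and the strongest colours on the right are in degarelix only rats.

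The clock genes were also ranked within the whole transcriptome. Of 11438 named genes with a mean of at least 1 CPM, ranked by r with Arntl from the lowest, Per1 was number 5, Dbp 14 and Per3 19, while Per2 was 546, Tef 1209, Cry1 1309 and Cry2 1516. Clock was number 521 from the highest. Ranked by rho, Per3 was number 42 from the lowest and Per1 and Dbp, which tied, were 224. Ranked for Per1, Arntl was number 3 from the lowest by r and 131 by rho. For Dbp, Arntl and Clock were numbers 17 and 18 from the lowest, and Ciart and Per1 were numbers 26 and 44 from the highest (r = 0.78 and 0.74). By rho these numbers were 356, 86, 61 and 423. For Clock, Ciart was number 2 from the lowest by r (-0.94) and 1 by rho (-0.98), with 4.42, 5.37, 3.09, 3.31, 6.01 and 2.10 CPM in the degarelix only rats and 3.66, 2.84, 2.90, 2.94 and 3.93 CPM in the FSH rats. These ranks rest on 11 rats that are the same for every gene, and carry no test.

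Among the 5 genes most like Arntl were Eri1 (r = 0.89), Lrrfip2 (0.85), Impa1 (0.84) and Ppp6c (0.79), and those least like it were Azin2 (-0.83), Cybrd1 (-0.83), Sgip1 (-0.82), Tmem198 (-0.81) and Per1. None of the 5 genes most like Arntl by r was among the 5 by rho. The genes most like Dbp were Ino80 (r = 0.95), Ctsk (0.88), the glucocorticoid-induced Klf9 (0.88), Zfp133 (0.87) and Ssu72 (0.86), of which 3 were also among the 5 by rho, and those least like it were Sec16a (-0.89), Apobec3b (-0.89), Lrrfip2 (-0.87), Retsat (-0.86) and Glcci1 (-0.85). For Per1 the closest were Cybrd1 (0.94), Asap2 (0.89) and Tmem38a (0.89), and the most opposite were Ggcx (-0.92) and Aga (-0.85), followed by Arntl. For Clock they were Rac1 (0.95), Ctsl (0.92) and Peli2 (0.92), and Cpxm1 (-0.95), Ciart and Mrps30 (-0.93).

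For Npas2 the 3 closest included Abcb11 and Aspa (0.86 each), and the most opposite Lrig2 (-0.90), Mphosph10 (-0.90) and Emc9 (-0.86). For Per2 they were Taf1c (0.90), Taf8 (0.90) and Smarcd2 (0.87), and Yipf1 (-0.92), Gk (-0.87) and Pfkfb1 (-0.85). For Per3 they were Pcolce (0.90), Rpp38 (0.89) and Pbx2 (0.89), and Pitpna (-0.88), Gbf1 (-0.88) and Arl8b (-0.86). For Cry1 they were Bcl2l1 (0.93), Map3k6 (0.90) and Gldn (0.85), and Ubtd2 (-0.89), Knstrn (-0.88) and Myo18a (-0.87). For Cry2 they were Sun1 (0.97), Hs2st1 (0.96) and Ash1l (0.96), and Pnpla3 (-0.97), Naa20 (-0.96) and Pafah2 (-0.95). For Tef they were Pwp2 (0.90), Bicc1 (0.90) and Pwwp2b (0.89), and Slc36a4 (-0.88), Paip2 (-0.87) and Ces2 (-0.86).

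As a single reading of clock position, the log2 ratio of Arntl to Dbp stood at -4.60, -5.62, -2.91, -4.39, -5.50 and -3.97 in degarelix only replicates 1 to 6. It stood at -4.53, -4.35, -4.19, -5.11 and -5.46 in FSH replicates 1 to 5. Every FSH rat lay inside the range of the degarelix only rats. The group means were -4.50 ± 1.01 and -4.73 ± 0.536 (SD), a difference of -0.23 that became 0.09 without degarelix only replicate 3. On this reading the groups overlapped, and the rats within degarelix only lay farther apart than the group means. The reading depends on the ratio chosen. The difference of the group means was -0.56 for Npas2 to Dbp, -0.43 for Arntl to Per1 and -0.44 for Arntl to Per3. It was -0.11 for Dbp to Per2. For Arntl to Per3, FSH replicate 5 (-4.17) lay below the lowest degarelix only rat (-4.12). These differences were not tested. Whether the rats were killed at different hours was not tested, since no collection time is given.

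Depth and cell makeup were set beside Arntl and Dbp in 10 relations. The r with log2 total counts was -0.31 for Arntl (permutation p = 0.352, rho = -0.25, p = 0.470) and 0.30 for Dbp (permutation p = 0.370, rho = 0.36, p = 0.273). Their r with the summed adipocyte markers was -0.06 and -0.13, with endothelial markers -0.02 and -0.14, with macrophage markers 0.02 and -0.19 and with lymphoid markers 0.26 and -0.17, and the lowest adjusted p of the 10 was 0.954 by r and 0.697 by rho. Endothelial markers did move with the group: 4 of 4 tested had an unadjusted p under 0.05 and lay higher with FSH (median log2 difference 0.41), where 11.8% of all genes did. In edgeR's test 1 of the 4 passed the threshold, where 2.27% of all genes did. Of 5 such markers listed, Pecam1 was not matched. Signs of acute response did stand apart in some of the same rats. Fos and Fosb, immediate early genes, stood at 62.2 and 45.9 CPM in degarelix only replicate 3. The other degarelix only rats had at most 6.90 and 3.47 CPM and the FSH rats at most 41.0 and 25.4 CPM. Not all of the 7 immediate early genes tested were highest in that replicate. Some were highest in an FSH rat and some in degarelix only replicate 4. The inducible chaperone gene Hspa1b stood at 160.6 CPM in degarelix only replicate 4, the rat with the most Per2, and at 49.0 CPM in replicate 3. Their part in the clock gene values was not tested. Of 8 glucocorticoid-induced genes, which share inducers with Per1, 0 passed the threshold in edgeR's test. In that test 3 had an unadjusted p under 0.05, all higher with FSH (11.8% of all genes were so), among them Sgk1 (log2 difference 0.57 ± 0.17, edgeR adjusted p = 0.0949). Over the 8 genes, 5 log2 differences lay above 0 and 3 below.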

How the data were processed

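Counts per Ensembl gene were deposited by the authors as whole numbers without normalization, 1 column per rat, as the values show. The genome build rn6 and the tools STAR, DESeq2 and edgeR are named, without their role or version, per the submitters' processing notes. The libraries mark strand and were read from both ends, per the labels' protocols. The counting program, annotation and strand setting were not given in the sources used here, so genes that overlap on opposite strands can share counts. Pcmt1 was left out because 1 cell holds a letter. Totals were 13163021 to 23694602 counts per library, which fixes the precision of low genes.

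Columns were matched to rats by the labels. edgeR 4.0.16 in R 4.3.3 was used with filterByExpr, TMM factors, a robust quasi-likelihood F test of the group (9 residual degrees of freedom) and Benjamini-Hochberg adjustment over all 12846 genes, with a threshold of 0.05. Correlations used log2 CPM (prior count 2) with permutation tests in numpy 2.4.6. The rule for named genes took all 10 clock genes, the other clock genes past the threshold, among the 4 smallest p or without overlap of the groups, the 3 genes most and least like each (5 for Arntl and Dbp), and at most 2 genes of each list of glucocorticoid-induced, immediate early and heat shock genes. Members, lists and tests were chosen with earlier results of these data known. The alternatives were other scalings and filters, DESeq2 1.42.0, limma-voom (limma 3.58.1), no robust estimation, a replicate block and leaving out each library; leaving out libraries from the spread was chosen after seeing the data. Some genes that the rule names are not reported here. The fit and the correlation step were tested on simulated data.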

Additional observations from a re-analysis of the deposited data

Results flagged for a closer look

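Among 32 groups of values checked (16 clock genes in 2 groups), 1 library stood apart from the rest of its group by Dixon's criterion, which chance passes in about 1 of 20 groups. Per1 in FSH replicate 4 was at 91.5 CPM, below the other FSH rats, which lay between 98.8 and 102 CPM. The gap was 0.718 of the group's range, against a critical value of 0.710, and the 4 other rats lay very close together.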

How the results depend on the processing

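No clock gene of the 10 was called under any of 199 combinations of gene and setting with an adjusted p (DESeq2 gave none for Npas2), and 195 kept their direction. The log2 difference turned sign for Per1 without degarelix only replicate 3 (-0.024), Dbp without degarelix only replicate 5 (0.046), Per2 without degarelix only replicate 6 (-0.030) and Per2 with a replicate block (-0.021). With 1 library left out it ranged from -0.024 to 0.193 for Per1, -0.192 to 0.046 for Dbp, -0.030 to 0.178 for Per2, -0.456 to -0.087 for Arntl and -1.14 to -0.51 for Npas2. With the replicate block Arntl was at -0.22. The count of called genes over the whole table (292) was 1135 with DESeq2, 635 with sample quality weights and 14 with the replicate block, and 30 to 551 with 1 library left out. The count of other clock genes (1) was 3 with DESeq2, 2 with quality weights, 0 with the replicate block and 0 to 2 with 1 library left out. With the block, Nfil3 had an edgeR adjusted p of 0.109. The 5 correlated pairs became 0 with Spearman's rho and 0 to 2 with 1 rat left out. The causes were not tested. Replicate numbers are shared by 5 rats of each group, but no label says that they pair animals. The correlations of same-numbered deviations were 0.118, -0.110, -0.109, 0.130 and 0.124, and 0 of 5 FSH rats correlated best with their own number. Depth limits Npas2, with 11 counts in 1 library.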
